A study of Mus musculus with 4 samples.

Results

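The livers of mice without carnitine palmitoyltransferase 1a (Cpt1a) in the liver were compared with the livers of mice without carnitine palmitoyltransferase 2 (Cpt2), both fasted for 24 h, over every gene in the authors' deposited table of this comparison. The table lists 23765 genes of the 54532 in the count table, and 17755 of them carry an adjusted p below 1, which are called tested here. The Cpt1a group was 4 mouse livers, replicates 1 to 4, labelled as liver-specific knockouts and collected after the 24 h fast. Its group name carries AlbCre, the name used for a Cre recombinase under the albumin promoter, which is active in hepatocytes, so that other cells of the liver would keep the gene. The Cpt2 group is named in the same way, Cpt2_AlbCre, and its samples came from an earlier series. Its separate libraries were not analysed here, so that for this group only the authors' mean, fold change and p are given. Ages, sex and the flox alleles are not stated in the labels used here.

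Cpt1a sits in the outer mitochondrial membrane and joins long-chain fatty acids to carnitine, the step that sets how much fat enters mitochondria. Cpt2 sits on the inner membrane and turns the imported acylcarnitines back into acyl-CoA for beta-oxidation. Loss of either enzyme blocks the same pathway, before the acylcarnitine is made in the case of Cpt1a and after it in the case of Cpt2. In a fasted liver, fatty acids also act as signals through PPARA, a nuclear receptor that induces genes of fat oxidation, and a liver that cannot burn fat stores it in lipid droplets.

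Compared with the Cpt2 group, Cpt1a knockout livers had lower levels of genes of PPARA, of lipid droplets, of the integrated stress response and of mitochondrial protein quality control. In the same comparison, they had higher levels of genes of bile acid and drug metabolism, of serum amyloid and of the interferon response, and of the mitochondrial genome. How each group stood against a reference group is given further below. Among lower genes were Gpnmb, Nupr1, Pdk4, Gdf15 and Plin2, and among higher genes were Cyp7a1, Akr1d1, Saa4, Glul and Irf7. Of the integrated stress response list, 25 of 35 tested members were lower and 0 higher, and of the interferon-stimulated genes outside the Ifi200 cluster, 27 of 38 were higher and 0 lower. The lists were chosen with earlier results of these data known, so such counts are descriptions only. Over all tested genes, 28.8% were called in either direction, 14.2% higher and 14.6% lower, at an adjusted p below 0.05.

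The promoters printed here show letters found in some members of these 2 lists, and were taken from members that hold them. Each is 300 bases from RefSeq (build GRCm38.p6), from 250 bases before to 50 bases after the start of the gene, printed 5′ to 3′ on the strand of the gene. Capitals in the first 4 mark TGATGNAA or its reverse complement TTNCATCA, the letters that ATF4 is known to bind together with a C/EBP partner. Nupr1 (window chr7:126625421-126625720, minus strand), a stress-induced chromatin protein, Atf3 (window chr1:191183284-191183583, minus strand), a stress-induced transcription factor, Chac1 (window chr2:119350992-119351291, plus strand), an enzyme that degrades glutathione, and Fgf21 (window chr7:45615441-45615740, minus strand), a fasting hormone, were all lower in Cpt1a knockout livers.
Nupr1: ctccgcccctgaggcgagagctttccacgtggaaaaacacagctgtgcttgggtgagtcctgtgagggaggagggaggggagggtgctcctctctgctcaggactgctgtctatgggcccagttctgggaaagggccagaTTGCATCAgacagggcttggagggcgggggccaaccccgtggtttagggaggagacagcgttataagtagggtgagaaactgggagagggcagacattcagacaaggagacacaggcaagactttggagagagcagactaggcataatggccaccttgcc
Atf3: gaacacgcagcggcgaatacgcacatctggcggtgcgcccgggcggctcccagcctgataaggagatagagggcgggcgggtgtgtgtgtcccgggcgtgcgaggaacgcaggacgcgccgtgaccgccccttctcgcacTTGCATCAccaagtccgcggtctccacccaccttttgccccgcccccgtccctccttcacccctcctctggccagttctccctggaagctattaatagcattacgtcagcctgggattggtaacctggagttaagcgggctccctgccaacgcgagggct
Chac1: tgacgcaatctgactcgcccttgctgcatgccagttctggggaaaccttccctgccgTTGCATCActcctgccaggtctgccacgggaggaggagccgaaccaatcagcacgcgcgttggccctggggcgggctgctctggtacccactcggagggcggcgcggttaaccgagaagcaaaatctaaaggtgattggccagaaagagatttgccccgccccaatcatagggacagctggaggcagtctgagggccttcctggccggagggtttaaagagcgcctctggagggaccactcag
Fgf21: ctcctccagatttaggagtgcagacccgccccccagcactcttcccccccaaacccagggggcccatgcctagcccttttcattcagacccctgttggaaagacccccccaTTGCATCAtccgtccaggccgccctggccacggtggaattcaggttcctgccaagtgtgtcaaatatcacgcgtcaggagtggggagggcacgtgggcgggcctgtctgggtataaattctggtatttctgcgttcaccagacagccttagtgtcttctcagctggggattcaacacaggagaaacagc
Capitals in the other 2 mark GAAA-NN-GAAA or its reverse complement TTTC-NN-TTTC, the letters of an interferon-stimulated response element. Ifit1 (window chr19:34640639-34640938, plus strand), which binds viral RNA, and Oas1a (window chr5:120907476-120907775, minus strand), which senses double-stranded RNA, were both higher in Cpt1a knockout livers.
Ifit1: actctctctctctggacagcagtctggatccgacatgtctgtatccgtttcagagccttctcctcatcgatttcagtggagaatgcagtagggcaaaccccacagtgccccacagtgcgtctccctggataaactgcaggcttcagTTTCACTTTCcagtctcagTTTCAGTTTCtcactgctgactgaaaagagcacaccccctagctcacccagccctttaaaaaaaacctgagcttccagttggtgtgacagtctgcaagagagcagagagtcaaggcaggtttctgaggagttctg
Oas1a: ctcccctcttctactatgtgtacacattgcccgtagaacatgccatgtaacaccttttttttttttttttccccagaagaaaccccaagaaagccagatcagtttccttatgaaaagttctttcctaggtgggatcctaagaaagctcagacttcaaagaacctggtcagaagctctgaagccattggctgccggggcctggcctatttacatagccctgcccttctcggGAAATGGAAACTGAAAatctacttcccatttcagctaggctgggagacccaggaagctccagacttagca
On both strands, TGATGNAA stood in the window of 11 of the 30 tested ATF4 list genes with a RefSeq promoter, or 36.7%, against 4.51% of 27025 genes with one. By call, it stood in 10 of the 22 members that were lower and in 1 of the 8 other members. GAAA-NN-GAAA stood in 18 of 27 interferon-stimulated genes, or 66.7%, against 3.99% of all genes. There the share was alike in called and other members, with 12 of 18 higher members and 6 of 9 others. The letters TGACNNNGC, bound by NRF2, stood in 11 of 29 genes of the antioxidant list, against 3781 of all 27025 genes, with 4 of 11 lower members and 7 of 18 others. The lists gather genes known from these responses, so a share above that of all genes may come from how they were drawn up. This was not tested. A match describes letters in this window and is not a measured binding site.

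The 4 Cpt1a libraries held 13138884 to 14116441 counts in genes, and 8.79 to 10.9% of these came from the mitochondrial genome. The authors' scaling of them ran from 0.985 to 1.04. Labels give 4 separate livers but do not say whether they came from separate litters, and whether the Cpt2 libraries were sequenced together with them is not given in the sources used here, so that genotype and sequencing batch cannot be told apart. The livers carried the defining hepatocyte genes, with albumin (Alb) at 15479 ± 3733 FPKM (SD, n = 4) and transthyretin (Ttr) at 2163 ± 139 FPKM (SD, n = 4). Summed counts of 5 exocrine pancreas markers were 226 in liver 1 and 115 to 155 in the other livers. In bulk tissue, fewer cells of a type and less RNA per cell cannot be told apart.

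Cpt1a itself (chr19:3323301-3385732 on GRCm38, plus strand) had normalized counts of 1598, 1868, 2030.4 and 2426 in Cpt1a livers 1 to 4. All of them lay below 22759, the mean of the Cpt2 group in the authors' deposited table. That table gave a log2 fold change of -3.52, which is 11.5-fold lower (adjusted p = 7.11e-82), the smallest p of the comparison. Reads of Cpt1a remained at 30.3 ± 5.24 FPKM (SD, n = 4), and the files do not show which exons the knockout removed.

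Cpt2 (chr4:107903981-107923610, minus strand) did not mark its own knockout. Its normalized counts were 2976, 2588, 3131 and 2081 in the Cpt1a livers, against a Cpt2 group mean of 1969.9 in the authors' deposited table. The Cpt2 mean lay below each of the 4 livers, with a log2 fold change of 0.45 that missed the threshold (adjusted p = 0.0607). Against the reference group, Cpt2 in the Cpt2 group stood at a log2 fold change of -0.07 (adjusted p = 0.837) in the authors' deposited table of that comparison. Counts over the whole gene therefore do not check the label of the Cpt2 group, and the deleted part of the gene is not given in the sources used here.

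Of 17755 genes tested, 2514 were higher and 2592 lower in Cpt1a knockout livers by the authors' adjusted p. At least a 2-fold difference was reached by 1189 of the higher genes, or 6.7% of those tested, and by 713 of the lower genes, or 4.02%. At the stricter adjusted p below 0.01, 19.7% of the genes were called, 9.2% higher and 10.5% lower. The median log2 fold change in the authors' deposited table was 0.96 among higher genes, -0.74 among lower genes and 0.05 over all genes tested. Between the 4 livers, the median SD of log2(normalized count + 1) was 0.28 over the 13781 tested genes that averaged 10 or more counts. All 4 livers lay on the same side of the Cpt2 group mean in 5015 of 5106 called genes, or 98.2%, and in 4397 of 12649 other tested genes, or 34.8%. Leaving out any 1 liver changed the direction of 0 called genes. The same livers and mean went into the p behind each call, so these counts do not test agreement between livers.

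**Figure D1:**
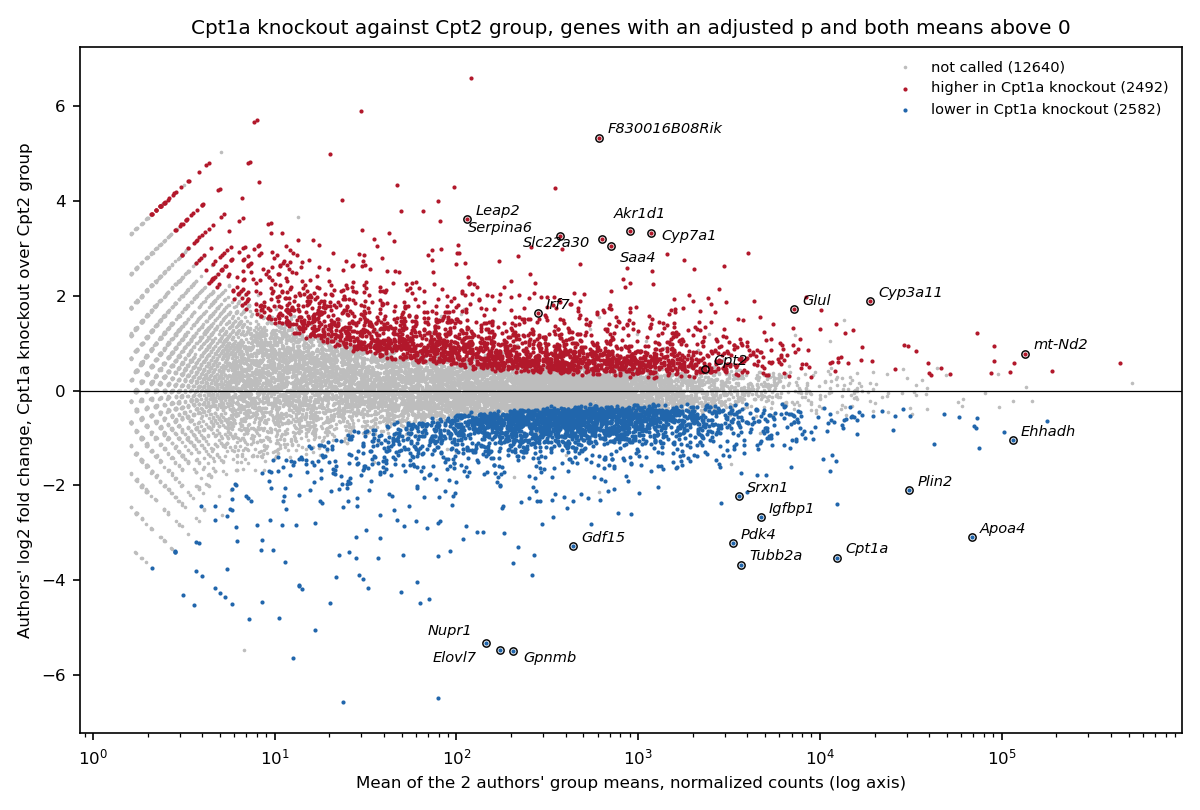
Each point is a gene with an adjusted p and both group means above 0; the x axis is the mean of the 2 group means in normalized counts (log axis) and the y axis is the log2 fold change of Cpt1a knockout over the Cpt2 group in the authors' deposited table. Red genes were higher and blue genes lower at an adjusted p below 0.05; Gpnmb lies at -5.50, Cpt1a at -3.52 and Cyp3a11 at 1.89, and Cpt2 lies among the grey genes at 0.45.

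Among the lower genes, the smallest p after Cpt1a belonged to Gpnmb, a glycoprotein of lysosomes that is known from lipid-laden macrophages. Its normalized counts were 8.12, 11.1, 10.5 and 5.83 in the 4 livers. The Cpt2 group mean was 401 in the authors' deposited table, which is 45.1-fold higher (log2 fold change -5.50, adjusted p = 1.54e-72). All 4 livers lay far below that mean. Elovl7, a fatty acid elongase, had normalized counts of 12.2, 3.03, 8.62 and 6.8 against 338 in the Cpt2 group (log2 fold change -5.46, adjusted p = 8.52e-60, authors' deposited table). Tubb2a, a beta-tubulin, had 420.4, 399, 809 and 526 against 6862 (log2 fold change -3.67, adjusted p = 2.44e-56, authors' deposited table). Liver 3 was the highest of the 4 for Tubb2a and still lay far below the Cpt2 group mean. Endod1, an endonuclease-domain protein, had 57.9, 29.2, 50.8 and 38.9 against 491 (log2 fold change -3.47, adjusted p = 5.25e-55, authors' deposited table). Ccdc120 (-3.29), Uap1l1 (-2.31), the small heat shock protein Hspb1 (-2.07) and the ribosome biogenesis factor Rrp12 (-2.33) were also among the 12 protein-coding genes with the smallest p and a lower level, with log2 fold changes from the authors' deposited table in brackets.

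Among the higher genes, the smallest p belonged to Slc22a30, an organic anion transporter family member whose start lies 5.01 Mb from that of Cpt1a on chromosome 19. Its normalized counts were 1113, 1505, 800.1 and 1158 in the 4 livers and 124 in the mean of the Cpt2 group (log2 fold change 3.20, adjusted p = 1.54e-54, authors' deposited table). Every liver lay above the Cpt2 mean. Saa4, a constitutive serum amyloid apolipoprotein, had 1033, 1384, 1287 and 1397 against 153 (log2 fold change 3.06, adjusted p = 3.04e-46, authors' deposited table). Adra1b, the alpha-1B adrenergic receptor through which catecholamines act on hepatocytes, had 337, 501, 441 and 547 against 55.7 (log2 fold change 3.04, adjusted p = 9.97e-41, authors' deposited table). The livers and the Cpt2 mean were well apart for both genes. Serpina6, the plasma carrier of glucocorticoids, had 678, 606, 534 and 867 against 70.0 (log2 fold change 3.26, adjusted p = 3.59e-35, authors' deposited table). Cxcl12, a chemokine, had 6239, 7679, 7002 and 7115 against 2395 (log2 fold change 1.55, adjusted p = 1.45e-32, authors' deposited table). The 4 livers differed little from each other in Cxcl12, with a mean of 7009 ± 592 (SD, n = 4). Chpt1, which makes phosphatidylcholine, had 9474, 11213, 9457 and 10672 against 4101 (log2 fold change 1.32, adjusted p = 4.99e-27, authors' deposited table). Car8, a carbonic anhydrase-related protein, had 845, 855, 785 and 780.5 against 197 (log2 fold change 2.05, adjusted p = 1.35e-40, authors' deposited table). All 4 livers lay above the Cpt2 mean for Chpt1 and Car8. Apol7a (2.35), the sulfotransferase Sult2a8 (1.70) and the inflammasome sensor Nlrp6 (2.56) were further protein-coding genes with the smallest p and a higher level, beside Akr1d1 and Cyp3a11 described with the bile acid and cytochrome genes (log2 fold changes from the authors' deposited table).

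**Figure D2:**
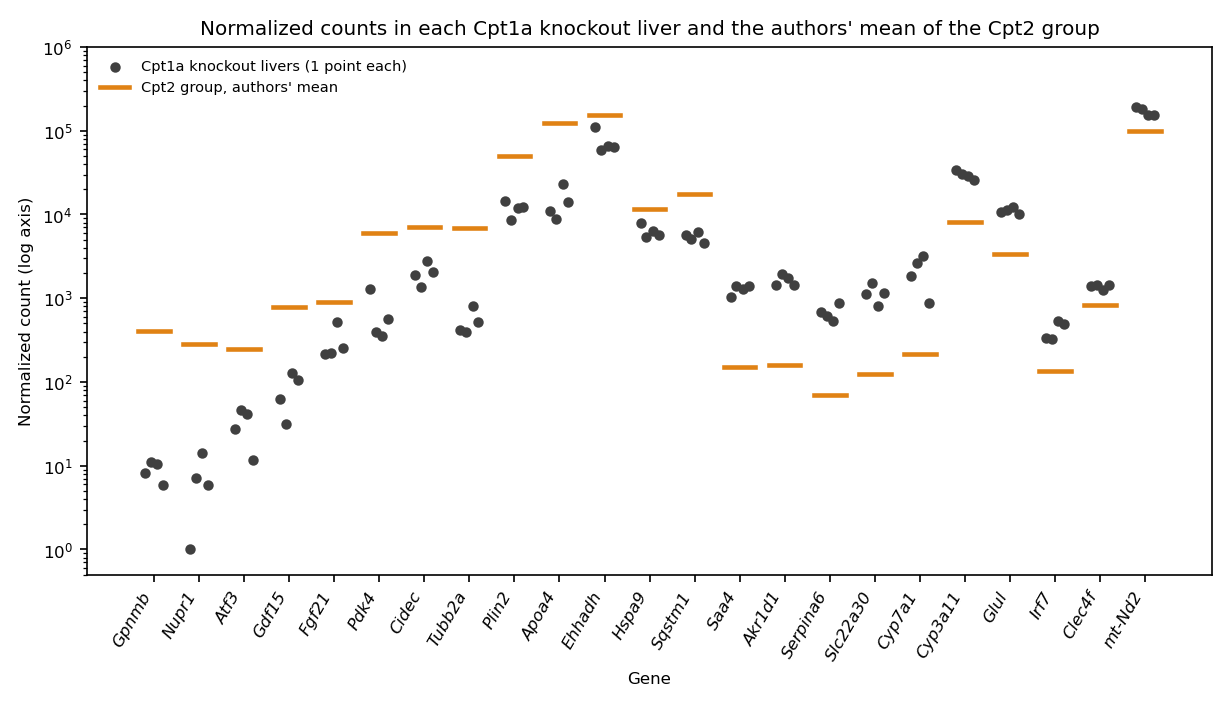
Normalized counts (log axis) of 23 genes in each of the 4 Cpt1a knockout livers (grey points, livers 1 to 4 from left to right within a gene) and the authors' mean of the Cpt2 group (orange line). All 4 points lie below the line from Gpnmb to Sqstm1 and above it from Saa4 to mt-Nd2; for Ehhadh, liver 1 at 111245 is nearest to the line at 154909.6.

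Numbers in brackets after a gene are log2 fold changes of Cpt1a knockout over the Cpt2 group. In the carnitine system, of 15 tested enzymes and carriers, 3 were lower and 1 was higher, or 26.7% called, near the 28.8% over all genes. Beside Cpt1a, which was deleted, the lower members were Crat, the mitochondrial carnitine acetyltransferase (-0.67, adjusted p = 1.84e-05), and the plasma membrane carnitine carrier Slc22a5 (-0.47), as log2 fold changes in the authors' deposited table. Bbox1, the last enzyme of carnitine synthesis, was higher (0.58, authors' deposited table). Slc25a20, which carries acylcarnitines across the inner membrane, had a log2 fold change of 0.02 and peroxisomal Crot one of -0.02 in the authors' deposited table, and neither was called.

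Mitochondrial beta-oxidation genes fell in 8 of 23 members and rose in 2, with a median log2 fold change of -0.21 in the authors' deposited table, or -0.12 without liver 4. Acadvl, the dehydrogenase for very long acyl chains (-0.85), Acadl, for long chains (-0.65), and both subunits of the trifunctional protein, Hadha (-0.84) and Hadhb (-0.49), were lower in the authors' deposited table. Hadha had normalized counts of 9151, 7120.4, 7151 and 7906 against a Cpt2 group mean of 14048 (adjusted p = 3.23e-08, authors' deposited table). No liver reached that mean. The enzymes for medium and short chains were not called, with log2 fold changes of -0.04 for Acadm and -0.02 for Acads in the authors' deposited table. Etfdh, which passes electrons from the acyl-CoA dehydrogenases to ubiquinone, was lower (-0.60, authors' deposited table). Of 11 genes of ketone body synthesis and handling, 3 were lower and 1 higher, or 36.4% called, beside 28.8% over all genes.

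In peroxisomes, 9 of 24 tested genes of beta-oxidation were lower and 4 higher. Ehhadh, the bifunctional enzyme of the peroxisomal pathway, had normalized counts of 111245, 58295, 66649 and 63918 against a Cpt2 group mean of 154909.6 in the authors' deposited table. Liver 1 stood above the other 3, and all 4 lay below that mean. The log2 fold change was -1.05 (adjusted p = 1.31e-05, authors' deposited table). Acaa1b, the peroxisomal thiolase (-0.79), and Hsd17b4 (-0.66) were lower too, while Pecr (1.18) and the transporter Abcd2 (0.99) were higher in the authors' deposited table. Of 18 peroxins and peroxisomal membrane proteins, 6 were lower, among them Pex11a, which elongates peroxisomes (-0.67, authors' deposited table), and 2 were higher. Omega-oxidation genes split evenly, with 5 of 19 in each direction: Cyp4a10 (-0.75) and Cyp4a14 (-0.64), the main fatty acid omega-hydroxylases, were lower and the alcohol dehydrogenase Adh4 was higher (1.37, authors' deposited table). Cyp4a14 remained among the most abundant liver transcripts at 3518 ± 1092 FPKM (SD, n = 4). Acyl-CoA thioesterases, which release free fatty acids, also split: Acot9 (-1.73) and mitochondrial Acot2 (-1.41) were among 4 lower genes of 15, and Acot4 (0.81) and Acot3 (1.10) among 4 higher ones (authors' deposited table).

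PPARA targets were lower in 28 of 48 members and higher in 4, with a median log2 fold change of -0.59 against 0.05 over all genes tested. Pdk4, the kinase that shuts pyruvate dehydrogenase in fasting, had normalized counts of 1279, 393, 358 and 559.8 in the 4 livers and a Cpt2 group mean of 5989.7 in the authors' deposited table. Liver 1 was the highest and remained below the Cpt2 mean. The log2 fold change was -3.21 (adjusted p = 1.47e-10, authors' deposited table). Fabp3, a fatty acid binding protein of muscle, had 3, 0, 3 and 1 counts in the livers against a mean of 156 normalized counts in the Cpt2 group (adjusted p = 3.96e-22, authors' deposited table). Fgf21, a fasting hormone, had 215, 219.9, 518 and 255 against 901 (log2 fold change -1.58, adjusted p = 5.14e-06, authors' deposited table). Liver 3 was the highest for Fgf21. Further lower targets were Gpd2 (-1.53), the retinol saturase Retsat (-1.12), Rab30, a Golgi GTPase (-0.89), Cd36, a fatty acid importer (-0.70), and Angptl4, an inhibitor of lipoprotein lipase (-0.56), from the authors' deposited table. Ppara itself was not called, at -0.10 (adjusted p = 0.825, authors' deposited table).

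Lipid droplet proteins were lower in 12 of 26 members and higher in 3, with a median log2 fold change of -0.48. Plin2, the coat protein of hepatocyte droplets, had normalized counts of 14562, 8608, 11976 and 12143 against a Cpt2 group mean of 50374 in the authors' deposited table. All 4 livers lay far below that mean. The log2 fold change was -2.09 (adjusted p = 4.4e-26, authors' deposited table). Cidec, which enlarges droplets, had 1875, 1349, 2816 and 2072 against 7009 (log2 fold change -1.79, adjusted p = 2.31e-14, authors' deposited table). Hsd17b13, a droplet-bound dehydrogenase, had 7692, 4974, 6869 and 6926 against 16853 (log2 fold change -1.35, adjusted p = 8.46e-15, authors' deposited table). For both genes every liver was below the Cpt2 mean. Plin3 (-1.90), Plin4 (-1.61), Plin5 (-1.05) and the lipase Pnpla2 (-0.84) were lower, and G0s2, the inhibitor of that lipase, was higher (1.45, authors' deposited table). Cidea had 1, 1, 2 and 2 counts in the livers against a mean of 26.8 normalized counts in the Cpt2 group (adjusted p = 0.000145, authors' deposited table).

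Triglyceride synthesis genes were lower in 11 of 20 members and higher in 0, with a median of -0.45. They ran from the first step, Gpam (-0.67) and Gpat3 (-1.04), over the phosphatidate phosphatases Lpin1 (-0.84) and Lpin2 (-0.91) to the last step, Dgat1 (-0.93) and Dgat2 (-0.35), as log2 fold changes in the authors' deposited table. Of 26 genes of fatty acid synthesis, elongation and desaturation, 12 were lower and 4 higher. Acacb, the mitochondrial acetyl-CoA carboxylase that makes the Cpt1a inhibitor malonyl-CoA, was lower (-1.36, adjusted p = 6.62e-11, authors' deposited table), and Thrsp, a lipogenic protein, was higher (1.79, authors' deposited table). Of 19 genes of fatty acid uptake, binding and activation, 6 were lower, led by the transporter Slc27a4 (-1.69), and 3 were higher, among them Fabp5 (2.13, authors' deposited table). Among 20 lipoprotein genes, 2 were lower and 3 higher, or 25% called, near the 28.8% over all genes. Apoa4, an apolipoprotein known to follow liver fat, had normalized counts of 11001, 8829.9, 23312 and 14256 against a Cpt2 group mean of 122749.9 (log2 fold change -3.10, adjusted p = 1.58e-31, authors' deposited table). Liver 3 was the highest and lay well below that mean. Mttp, which loads triglyceride onto apolipoprotein B, was lower as well (-0.92, authors' deposited table), while Apob itself was not called (-0.04).

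The integrated stress response is the programme through which ATF4 answers amino acid shortage, mitochondrial damage and other stresses. It was the list with the lowest median among those of 4 or more tested genes, -0.86. Nupr1 had normalized counts of 1.02, 7.06, 14.4 and 5.83 against a Cpt2 group mean of 286 (log2 fold change -5.32, adjusted p = 2.22e-37, authors' deposited table). Without liver 3, the highest of the 4, its log2 fold change was -5.94. Atf3 had 27.4, 46.4, 41.2 and 11.7 against 249 (log2 fold change -2.97, adjusted p = 1.01e-20, authors' deposited table). Gdf15, a hormone of cell stress that reduces appetite, had 63, 31.3, 127 and 105 against 795 (log2 fold change -3.28, adjusted p = 4.61e-10, authors' deposited table). For these 3 genes all 4 livers lay below the Cpt2 mean. Serine and one-carbon enzymes Psat1 (-2.90) and Mthfd2 (-2.74), the glutathione-degrading Chac1 (-2.26), the amino acid transporter chain Slc3a2 (-2.17), and mitochondrial Pck2 (-1.80) were lower in the authors' deposited table. Cytosolic tRNA synthetases fell less, with Nars at -1.06, Gars at -1.03 and Sars at -1.02, and Atf4 itself was at -0.73 (adjusted p = 0.00173, authors' deposited table). Slc7a11 had 1, 0, 1 and 0 counts in the livers against a mean of 11.1 normalized counts in the Cpt2 group (adjusted p = 0.00463, authors' deposited table). Phgdh (0.84), Ppp1r15a (-0.14) and Cebpb (-0.18) were not called.

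Mitochondrial chaperones and proteases, which fold and clear proteins inside the organelle, were lower in 11 of 18 members and higher in 0 (median -0.59). Hspa9, the mitochondrial Hsp70, had normalized counts of 7826, 5417, 6363 and 5665 against a Cpt2 group mean of 11609.5 (log2 fold change -0.88, adjusted p = 1.84e-08, authors' deposited table). No liver reached that mean. Hspd1, the mitochondrial chaperonin (-0.85), and the proteases Lonp1 (-0.87), Clpx (-1.01) and Afg3l2 (-0.92) were lower by similar amounts, while Hspe1, the partner of Hspd1, was not called (0.15, authors' deposited table). TCA cycle genes were lower in 12 of 21 members and higher in 1. Cs, citrate synthase, had 1256, 1080.2, 1118 and 1264 against 2705 (log2 fold change -1.20, adjusted p = 1.96e-17, authors' deposited table). The 4 livers lay close together for Cs. Ogdh (-0.69) and Pcx, which supplies oxaloacetate (-0.68), were lower in the authors' deposited table, and the higher gene was Sdhb (0.49). Of 29 genes of ER protein folding, 10 were lower, among them the chaperones Hsp90b1 (-0.87) and Hyou1 (-0.66), and 2 were higher (authors' deposited table).

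Of 33 genes of NRF2, glutathione and thioredoxin, 14 were lower and 5 higher, with a median of -0.35. Srxn1, which repairs oxidised peroxiredoxins, had normalized counts of 1391, 1186, 1435 and 1022 against a Cpt2 group mean of 5889.7 (log2 fold change -2.23, adjusted p = 2.12e-44, authors' deposited table). Pgd, an NADPH-producing enzyme of the pentose phosphate pathway, had 298, 262, 288 and 260.5 against 1042 (log2 fold change -1.91, adjusted p = 1.92e-43, authors' deposited table). Both genes were tight between livers, with Pgd at 277 ± 18.6 normalized counts (SD, n = 4). Ugdh (-1.79), the haem-degrading Hmox1 (-1.63) and Gclc, the first enzyme of glutathione synthesis (-1.14), were lower, and Gpx1 (0.84) and Gsta4 (1.52) were higher in the authors' deposited table. Nfe2l2, the gene of NRF2, was not called (-0.12).

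Lysosome and autophagy genes were lower in 16 of 36 members and higher in 4. Sqstm1, the autophagy receptor p62, had normalized counts of 5692, 5120.4, 6187 and 4568 against a Cpt2 group mean of 17401 (log2 fold change -1.69, adjusted p = 6.9e-28, authors' deposited table). The lysosomal proteases Ctsl (-1.49), Ctsz (-1.16) and Ctsd (-0.88) and the acid lipase Lipa (-0.94) were lower, whereas Ctss (0.62) and Ctsh (0.79) were higher in the authors' deposited table. Of 36 genes of Golgi and vesicle transport, 16 were lower and 3 higher. The COPI coat was lower in Copa (-1.12), Copb2 (-1.14), Copg1 (-0.93) and Copb1 (-0.84), and the COPII coat in Sec24d (-1.37) and Sec31a (-0.86, authors' deposited table). Beside Tubb2a, 7 further tubulins were lower, among them Tubb4b (-1.29) and Tubb5 (-1.06), while Car2 was lower (-0.67) and 5 carbonic anhydrases beside Car8 were higher, among them the mitochondrial Car5a (2.84) and Car3 (2.11, authors' deposited table). Cdkn1a, the cell cycle inhibitor p21, had 173, 113, 145 and 116 against 966 (log2 fold change -2.82, adjusted p = 1.09e-25, authors' deposited table). Among 28 genes of proliferation and p53, 6 were lower and 4 higher, or 35.7% called. That share was 28.8% over all genes and 32.4% over protein-coding genes. Mdm2, another p53 target, was not called (-0.03).

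**Figure D3:**
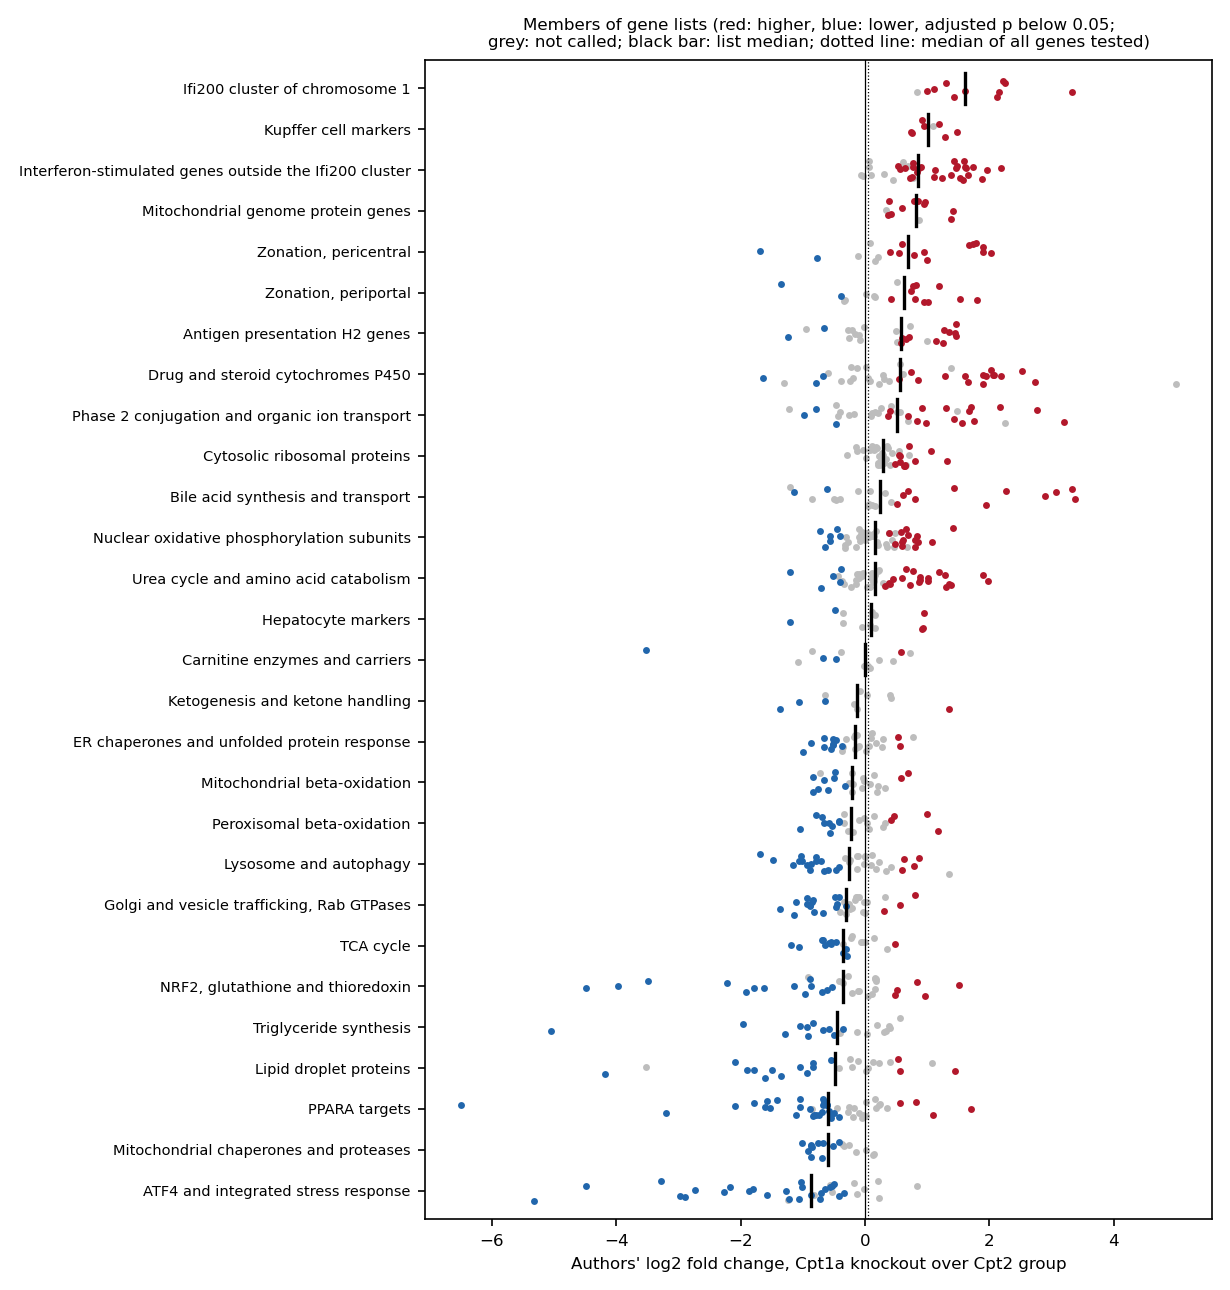
Each row is a gene list and each point a tested member, placed at its log2 fold change (Cpt1a knockout over Cpt2 group, authors' deposited table); red and blue members were called higher and lower, and grey members were not called. Black bars are list medians, from -0.86 for the ATF4 list to 1.61 for the Ifi200 cluster, beside the dotted median of all tested genes at 0.05.

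Bile acid genes were higher in 11 of 26 members and lower in 2. Cyp7a1, the rate-limiting enzyme of bile acid synthesis, had normalized counts of 1857, 2615, 3236 and 868 against a Cpt2 group mean of 215 in the authors' deposited table. Liver 4 was the lowest and still lay above that mean. The log2 fold change was 3.32 (adjusted p = 1.06e-05, authors' deposited table). Akr1d1, which reduces the bile acid ring, had 1456, 1932, 1767 and 1451 against 159 (log2 fold change 3.38, adjusted p = 4.16e-33, authors' deposited table). Nr0b2, the repressor SHP that bile acids induce, had 161, 97.8, 169 and 304 against 21.9 (log2 fold change 3.07, adjusted p = 2.44e-14, authors' deposited table). Synthesis and repressor genes stood higher side by side. The canalicular export pump Abcb11 (1.44) and the uptake carriers Slc10a1 (0.60) and Slco1b2 (0.70) were higher, while Cyp8b1, which sets cholic acid (-0.61), and the basolateral pump Abcc3 (-1.15) were lower in the authors' deposited table. Cyp27a1, of the alternative route (-0.12), and Nr1h4, the receptor FXR (0.04), were not called. Cholesterol synthesis genes went both ways, with 9 of 26 higher, such as Insig1 (1.05), and 6 lower, such as Sqle (-1.42, authors' deposited table).

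Drug and steroid cytochromes P450 were higher in 15 of 36 members and lower in 3, with a median of 0.56. Cyp3a11, a major drug-metabolising enzyme, had normalized counts of 34417, 30756, 28577 and 25778 against a Cpt2 group mean of 8046 (log2 fold change 1.89, adjusted p = 7.03e-26, authors' deposited table). Cyp2c54 (2.53), Cyp2c37 (2.02) and Cyp2c50 (1.95) were higher, and Cyp2b10 was lower (-1.64, authors' deposited table). These Cyp2c and Cyp3a genes are close copies, so that reads could be split between them. Among 35 genes of conjugation and organic ion transport, 15 were higher and 3 lower. Nnmt, which methylates nicotinamide, was higher (1.67), as were Gstt3 (1.56) and Ugt2a3 (1.30), and Ugt1a1, which conjugates bilirubin, was lower (-0.79, authors' deposited table).

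Genes of both ends of the liver lobule stood higher than in the Cpt2 group, and their place against the reference group is given further below. Of 18 genes known from the zone around the central vein, 12 were higher and 2 lower (median 0.68), and of 18 known from the zone around the portal vein, 10 were higher and 2 lower (median 0.63). Glul, glutamine synthetase of the innermost pericentral hepatocytes, had normalized counts of 10851, 11402, 12144 and 10146 against a Cpt2 group mean of 3358 (log2 fold change 1.73, adjusted p = 1.62e-22, authors' deposited table). The 4 livers lay within a narrow range for Glul, all far above that mean. Slc1a2 (1.89), Rhbg (1.89) and Lgr5 (1.78), of the same cells, were higher, and Axin2, a Wnt target, was lower (-0.77, authors' deposited table). On the portal side, Sds (1.19), Hal (1.02) and Gls2 (0.76), which break down amino acids, were higher and Arg1 was lower (-0.39, authors' deposited table). Over the wider list of urea cycle and amino acid catabolism, 20 of 49 genes were higher and 5 lower. Cth, which makes cysteine (1.90), Gnmt, which consumes methyl groups (1.30), and Otc of the urea cycle (1.28) were higher in the authors' deposited table. Cps1, the entry enzyme of the urea cycle, had 66355, 48864, 41049 and 25598 against 105322 (log2 fold change -1.21, adjusted p = 6.29e-05, authors' deposited table). Livers 1 and 4 were the highest and the lowest for Cps1, and all 4 lay below the Cpt2 mean.

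Gluconeogenic genes split, with 4 of 24 higher and 5 lower, or 37.5% called, beside 28.8% over all genes. G6pc, which releases free glucose, was 2.83-fold higher (adjusted p = 1.72e-08), Pcx was lower (-0.68), and Pck1, the cytosolic control enzyme, was not called (-0.33, authors' deposited table). Of 31 genes of glycolysis, glycogen and pyruvate control, 7 were higher and 10 lower. The glycogen-targeting subunits of protein phosphatase 1 parted: Ppp1r3c (1.98) and Ppp1r3b (1.70) were higher and Ppp1r3g was lower (-2.82, adjusted p = 0.000287, authors' deposited table). Ppp1r3g had normalized counts of 135, 39.3, 43.1 and 74.8 against 516 in the mean of the Cpt2 group (authors' deposited table). Liver 1 was the highest of the 4.

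Secreted factors of fasting and liver stress went both ways, with 10 of 26 higher and 9 lower. Igfbp1, which binds insulin-like growth factors, had normalized counts of 1887, 823, 1574 and 845 against a Cpt2 group mean of 8167 (log2 fold change -2.67, adjusted p = 3e-22, authors' deposited table). Igf1 had 11633, 10153, 8140.0 and 7192 against 5292 (log2 fold change 0.81, adjusted p = 2.48e-05, authors' deposited table). All 4 livers lay below the Cpt2 mean for Igfbp1 and above it for Igf1. Leap2, an antagonist of the ghrelin receptor, had 80.2, 205, 297 and 269 against 17.3 (log2 fold change 3.62, adjusted p = 4.59e-16, authors' deposited table). Liver 1 was the lowest for Leap2. Of 29 genes of the growth hormone axis and of sex bias, 13 were higher and 3 lower (median 0.73). Ghr, the growth hormone receptor (1.00), Igfals, which stabilises Igf1 in plasma (1.01), Mup3 (1.23) and Mup20 (1.22) were higher in the authors' deposited table. Mup genes are near-identical copies and their values are uncertain, and the sex of the animals is not given, so a part of sex in this list cannot be told apart from genotype. Lepr, the leptin receptor, had 502, 94.8, 209 and 221 against 1564 (log2 fold change -2.61, adjusted p = 0.000534, authors' deposited table), and liver 1 was the highest.

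Of 46 acute phase, coagulation and complement genes, 13 were higher and 5 lower. The serum amyloids Saa1 (2.27), Saa2 (1.66) and Saa3 (2.90) were higher with Saa4, whereas Orm2 (-2.26) and Orm3 (-1.44) were lower in the authors' deposited table. Fibrinogen Fgb (0.16) and complement C3 (-0.23) were not called.

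Interferon-stimulated genes outside the Ifi200 cluster, named with their promoters above, had a median log2 fold change of 0.86. Irf7, a transcription factor that amplifies the interferon response, had normalized counts of 333, 325, 541 and 494 against a Cpt2 group mean of 137 (log2 fold change 1.63, adjusted p = 4.34e-11, authors' deposited table). Ifit1 had 80.2, 103, 94.9 and 52.5 against 27.4 (log2 fold change 1.59, adjusted p = 2.31e-06, authors' deposited table). Every liver lay above the mean for both, although liver 4 was the lowest for Ifit1. Ifi44 (2.19), Oas1a (1.61), Cxcl10 (1.66) and Isg15 (1.12) were higher in the authors' deposited table, and Usp18 (-0.03) and Ifih1 (0.06) were not called. Levels differed between members, with Irf7 at 7.36 ± 1.92 FPKM (SD, n = 4) and Bst2 at 55.1 ± 11.4 FPKM (SD, n = 4). In the Ifi200 cluster of innate DNA sensors on chromosome 1 (chr1:173350879-174031810), 10 of 11 tested genes were higher and 0 lower (median 1.61). Aim2, which starts the DNA-sensing inflammasome (2.16), Ifi203 (1.43), Mndal (1.29) and Ifi204 (1.00) were among them in the authors' deposited table. These genes are close copies that lie side by side, so that their reads could be shared.

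Markers of immune cells differed by cell type. Kupffer cell markers were higher in 7 of 8 and lower in 0 (median 1.01), and their summed normalized counts ran from 4987 to 6567 in the livers against 3200.3 in the Cpt2 group mean. Clec4f, a lectin of Kupffer cells, had normalized counts of 1409, 1451, 1256 and 1438 against 824 (log2 fold change 0.75, adjusted p = 3.57e-06, authors' deposited table). Vsig4, a complement receptor of the same cells, had 589, 538, 436 and 522 against 229 (log2 fold change 1.19, adjusted p = 4.84e-10, authors' deposited table). All 4 livers lay above both means. Counts of these markers against the reference group are given further below. Of 9 macrophage and monocyte markers, 4 were higher, among them Lyz2 (1.66), and 1 was lower. The lower gene, Cd68, a lysosomal glycoprotein of macrophages, had 143, 133, 96.8 and 136 against 575 (log2 fold change -2.18, adjusted p = 2.56e-22, authors' deposited table). Markers of lipid-laden phagocytes were lower in 4 of 8, with Gpnmb, Cd9 (-1.04) and Ctsd beside Mmp12 (-1.61), and 1, Lpl (0.76), was higher (authors' deposited table). Trem2 (0.74) and Spp1 (0.33) of that list were not called.

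Antigen presentation genes were higher in 11 of 25 members and lower in 2. Class II genes H2-Ab1 (1.25), H2-Aa (1.14), H2-Eb1 (1.46) and the invariant chain Cd74 (1.45) were higher, and class I genes H2-K1 (-0.09) and H2-D1 (-0.28) were not called (authors' deposited table). Of 27 chemokine and cytokine genes, 13 were higher and 1, the receptor Tnfrsf12a, was lower (-2.48, authors' deposited table). Ccl5 (1.66), Ccl9 (1.36) and Il18 (1.47) were higher. Lymphocyte markers were higher in 4 of 11, and their sum was 131 to 149 against 53.2 normalized counts. Endothelial markers were higher in 4 of 8, neutrophil markers in 1 of 4, bile duct markers in 1 of 6 and stellate markers in 3 of 10 with 2 lower. Called shares were 36.4% for lymphocyte markers and 50% for endothelial and for stellate markers. They were 25% for neutrophil and 16.7% for bile duct markers, below the 28.8% over all genes. Red blood cell genes were higher in all 4 tested, with sums of 2439 to 6599 against 1991. Hbb-bs, a beta-globin, had 967, 2598, 2302 and 2114 against 795 (log2 fold change 1.33, adjusted p = 4.92e-05, authors' deposited table), and liver 1 was closest to that mean. The part of these cells and of blood in the interferon, antigen presentation and chemokine results was not tested. Of 26 genes of extracellular matrix, 5 were lower, among them Col4a1 (-0.86) and Col4a2 (-1.44), and 2 were higher (authors' deposited table). That is 26.9% called, near the 28.8% over all genes.

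Of 12 tested protein genes of mitochondrial DNA, 10 were higher and 0 lower (median 0.82). mt-Nd2, a subunit of complex I, had normalized counts of 191967, 182008, 152125 and 154597 against a Cpt2 group mean of 98836 (log2 fold change 0.78, adjusted p = 1.19e-07, authors' deposited table). Livers 1 and 2 were the highest. mt-Co1 (0.59), mt-Cytb (0.42) and mt-Nd5 (0.95) were higher, and mt-Atp6 was not called (0.33, authors' deposited table). Over all 29 tested genes of the mitochondrial chromosome, 22 were called and all 22 were higher. Nuclear genes of the respiratory chain went both ways, with 14 of 48 higher, such as Cox7c (0.80) and Ndufa4 (0.80), and 6 lower, such as Ndufs1 (-0.73) and Atp5a1 (-0.56, authors' deposited table). Cytosolic ribosomal protein genes were higher in 11 of 43 and lower in 0, led by Rps14 (1.07, authors' deposited table), with a median of 0.29. The called share was 25.6%, beside 28.8% in either direction and 14.2% higher over all genes. That median was 0.51 without liver 1 and 0.10 without liver 4. Their summed normalized counts ran from 127172 in liver 1, below the Cpt2 group mean of 145748, to 233269 in liver 4.

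Calls were not spread evenly over kinds of gene. Of 13962 protein-coding genes, 2043 were higher and 2479 lower, which is 32.4% called. Among 700 antisense genes 80 were higher and 12 lower, and among 653 long intergenic RNAs 86 were higher and 32 lower. Of 517 genes of the class TEC, unverified transcripts awaiting experimental evidence, 78 were higher and 8 lower. Among 86 unprocessed pseudogenes 32 were higher and 2 lower. Every one of these non-coding classes had a larger count of higher than of lower genes. Their called shares were 13.1% for antisense genes, 18.1% for long intergenic RNAs, 16.6% for TEC and 39.5% for unprocessed pseudogenes. Over all genes the share was 28.8%, so all but the last class lay below it. Whether the counting used strand is not given in the sources used here, so reads of an antisense gene and its partner cannot be told apart.

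**Figure D4:**
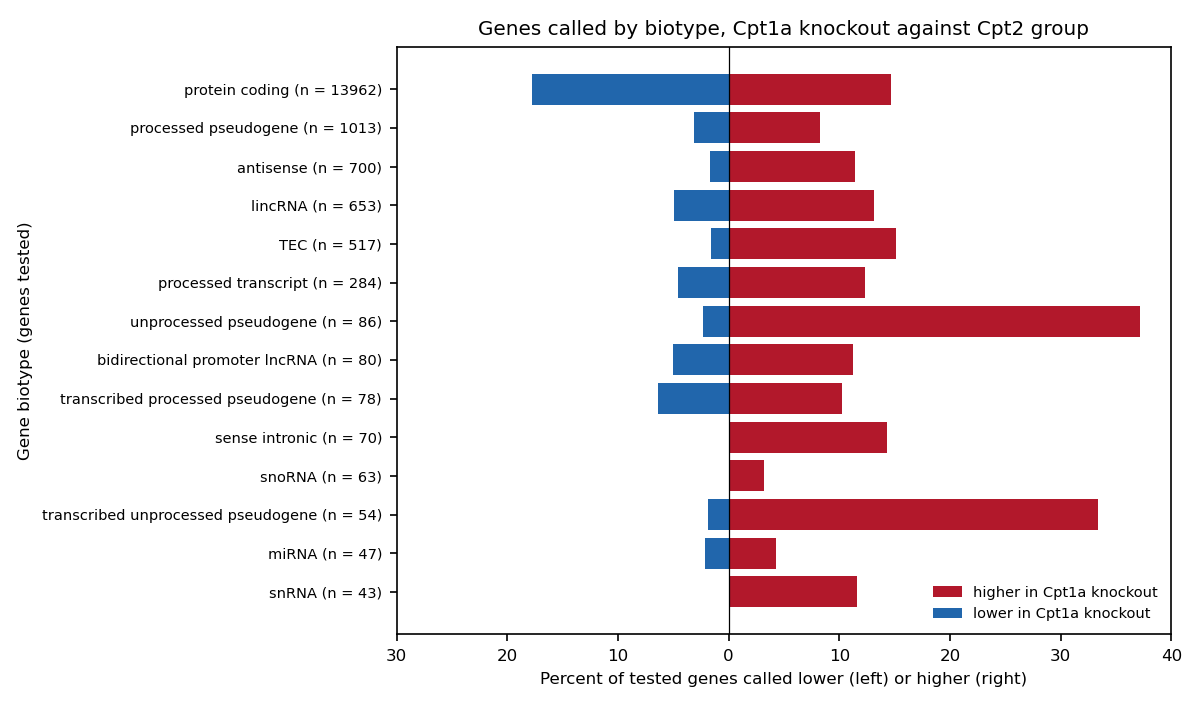
Bars give the percent of tested genes of each biotype that were called lower (blue, left) or higher (red, right) in Cpt1a knockout livers, with the number tested in brackets. Lower calls exceed higher calls in protein-coding genes, 2479 against 2043, and higher calls exceed lower calls in each other class drawn.

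Over the autosomes and X, the called share ran from 25.2% on chromosome 12 to 34.8% on chromosome 19, which carries Cpt1a, beside 28.8% over all genes. Of genes lying wholly or in part within 5 Mb of either end of Cpt1a, 59 of 177 tested genes were called, or 33.3%, with 18 higher and 41 lower. Clcf1, a cytokine gene that starts 0.891 Mb from the start of Cpt1a, was lower (-2.11, adjusted p = 2.38e-19, authors' deposited table). Around Cpt2, by the same measure, 19 of 69 were called, or 27.5%, with 6 higher and 13 lower. Ttc39a near Cpt2 was lower (-2.86, adjusted p = 1.33e-21, authors' deposited table).

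The authors also compared each knockout with 1 reference group, whose name joins Rab30 and Cpt2 with an f. Its genotype is not spelled out in the sources used here. The series design states that control mice were also fasted for 24 h, but the labels used here do not say that this group is those controls. The 3 comparisons share groups, so their values are only set side by side. The Cpt1a table lists genes with an unadjusted p below 0.05, and a gene not listed there has none below it or was not tested. Against the reference, 2431 genes were called in the Cpt1a knockout, or 14.4% of an estimated 16861 tested (6.81% higher and 7.6% lower), and 3675 in the Cpt2 group, or 21.0% of 17475 (10.3% higher and 10.7% lower).

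For several named genes lower in Cpt1a than in Cpt2 livers, the Cpt2 group stood above the reference. Gpnmb stood at a log2 fold change of 6.04 (adjusted p = 1.54e-57) for Cpt2 over reference in the authors' deposited table and was not listed for Cpt1a over reference. The same held for Elovl7 (6.12), Tubb2a (3.93), Pdk4 (3.83) and Gdf15 (3.20), all Cpt2 over reference in the authors' deposited table. Ehhadh was above the reference in both knockouts, by 2.25 for Cpt1a and 3.28 for Cpt2, and so was Cidec, by 1.74 and 3.51 (authors' deposited table). Rab30 stood at 1.11 and 1.99 in the same order. Over the PPARA list, 18 of 48 members were higher and 3 lower for Cpt1a over reference. For Cpt2 over reference, 31 were higher and 2 lower. Over the ATF4 list, 0 of 35 were higher and 6 lower for Cpt1a over reference, and 17 of 34 higher and 1 lower for Cpt2. Hspa9 was below the reference in Cpt1a livers (-0.71, adjusted p = 0.000515) and not called in Cpt2 livers (0.15, adjusted p = 0.442, authors' deposited table). Cdkn1a likewise stood at -2.84 for Cpt1a and -0.02 for Cpt2 (authors' deposited table).

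For several named genes higher in Cpt1a than in Cpt2 livers, the Cpt2 group stood below the reference. Akr1d1 was lower than the reference in both knockouts, at -1.10 for Cpt1a and -4.49 for Cpt2, as were Saa4 (-1.31 and -4.38) and Cyp3a11 (-1.33 and -3.23), as log2 fold changes in the authors' deposited table. Cyp7a1 (-3.46), Slc22a30 (-2.85) and Glul (-1.58) were below the reference in the Cpt2 group and not listed for Cpt1a over reference. Chpt1 stood above the reference in Cpt1a livers (1.12, adjusted p = 5.49e-06) and was not called in the Cpt2 group (-0.21, authors' deposited table). mt-Nd2 showed the same arrangement, at 0.87 and 0.07 (authors' deposited table). Of 49 genes of urea cycle and amino acid catabolism, 42 were called lower for Cpt1a over reference and 45 for Cpt2 over reference. In the interferon list, 3 members were higher and 1 lower for Cpt1a over reference, and 0 higher and 12 lower for Cpt2. Bile acid genes were 0 higher and 7 lower, then 2 and 13. Cytochromes P450 were 5 higher and 14 lower, then 1 and 23. Acute phase, coagulation and complement genes were 1 higher and 33 lower, then 0 and 33. Of 8 Kupffer cell markers, 1 was higher and 1 lower, then 0 and 4. Protein genes of mitochondrial DNA were 5 higher and 0 lower, then 0 and 1. Of the 18 periportal genes, 0 were higher and 15 lower for Cpt1a over reference, then 1 and 16 for Cpt2. The 18 pericentral genes were 4 higher and 5 lower, then 2 and 13.

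**Figure D5:**
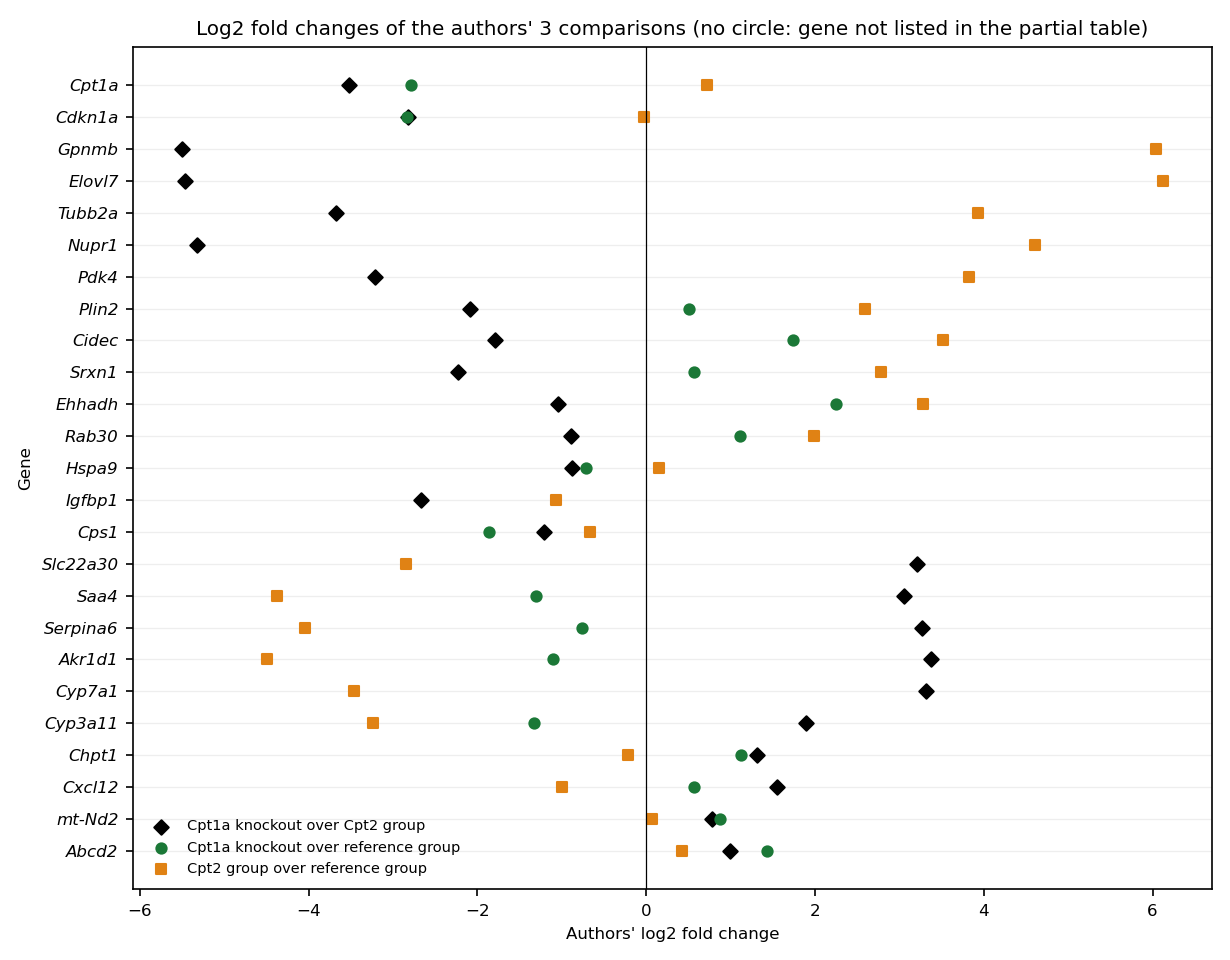
Log2 fold changes of 25 genes in the authors' 3 comparisons: Cpt1a knockout over Cpt2 group (black diamonds), Cpt1a knockout over reference (green circles, absent where the gene is not listed) and Cpt2 group over reference (orange squares). Gpnmb, Elovl7 and Pdk4 have squares at 6.04, 6.12 and 3.83 and no circle, while Cdkn1a has its diamond at -2.82, its circle at -2.84 and its square at -0.02.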

How the data were processed

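RNA from 4 livers of Cpt1a knockout mice was sequenced by Novogene, and the submitters' processing notes name HISAT2 and the mouse builds GRCm38 and mm10. The counter, annotation, strand setting and statistical test were not found in these notes or the file headers. The authors deposited raw counts per gene, FPKM values, normalized counts (a signal scaled by a factor per library), log2 fold changes and p-values for group comparisons. The deposited log2 fold changes differed by at most 0.00747 from the log2 ratio of the deposited group means. The authors' adjusted p was used as given, with genes at an adjusted p of 1 (6010) read as not adjusted. A gene was called at an adjusted p below 0.05.

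The names of 8 per-sample columns of the count table match no sample used here, so these columns were not used and the comparison was not refitted from counts. The 4 totals were 14106038, 13138884, 14116441 and 13682887 counts. With no test of their own, values here rest on the authors' p, and p-values measure only the spread between these samples, which may be technical.

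Genes were grouped into 46 pathway lists and 12 cell type marker lists, of which 1352 of 1354 members matched the count table. Members and lists were chosen with earlier results of these data known. Lists are described by counts and medians beside the same over all genes tested. Named genes were the 2 targets, in each direction 12 protein-coding genes, those of smallest adjusted p among differences of at least 2-fold, the 8 largest differences, and the genes with the smallest p or highest FPKM in each list, with further list members as examples; Clcf1, Ttc39a and Lepr were chosen after their values were seen. Promoters and motif counts came from RefSeq windows of GRCm38.p6. The adjustment was tested on simulated data. Python 3.11.15, pandas 2.3.3, matplotlib 3.10.9 and edgeR 4.0.16 (trimmed mean scaling of the levels only) were used. Alternatives were other thresholds, a minimum mean count of 10 over the Cpt1a livers, protein-coding genes only, other windows and leaving out each liver.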

Additional observations from a re-analysis of the deposited data

Results flagged for a closer look

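Of 49 genes whose normalized counts are given for each liver, 2 had a liver far from the other 3, where chance gives about 1 in 20. Fgf21 had a normalized count of 518 in liver 3 and 215 to 255 in the others. Ehhadh had a normalized count of 111245 in liver 1 and 58295 to 66649 in the others. In both genes all 4 livers remained below the Cpt2 group mean of the authors' deposited table.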

How the results depend on the processing

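A fold of at least 2 left 1902 genes called, 1189 higher and 713 lower, and an adjusted p below 0.01 left 3503, of which 1633 were higher. At an adjusted p below 0.01, members called higher came to 0 for mitochondrial beta-oxidation, 2 for peroxisomal beta-oxidation, 1 for peroxins, 1 for lipid droplet proteins, 2 for fatty acid synthesis and elongation, 1 for ER chaperones, 3 for the NRF2 list, 6 for the mitochondrial genome, 1 for proliferation and p53, 7 for ribosomal proteins and 1 for lymphocyte markers. At the same threshold, members called lower came to 5 for mitochondrial beta-oxidation, 3 for urea cycle and amino acid catabolism, 1 for antigen presentation, 3 for extracellular matrix, 1 for periportal genes and 0 for stellate markers. Other list counts stayed within 1.5 times. With a mean count of at least 10 over the Cpt1a livers, which removes genes that are low there, Gpnmb among them, lipid-laden phagocyte markers had 2 lower members and a median of 0.53 in place of -0.27, and adipocyte markers had 0 lower members. Named genes kept their direction without each liver in turn, and 139 of 139 with values in both reference comparisons kept it as the difference of those. By arithmetic, that difference is nearly the same ratio of group means, so the 139 do not check the calls. Without liver 3 the log2 fold change of Nupr1 went from -5.32 to -5.94. Scaled by the trimmed mean, 58 of 237 levels moved by more than 1 SD. No paired analysis was possible because the labels hold 1 group of samples. The Cpt2 group enters only as a mean, so its spread between livers is not shown, and genes with means under 10 counts are imprecise.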

Other observations

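Lists not described above were mixed or small. Of 19 circadian clock genes, 6 were higher and 2 lower: Nfil3, a repressor of the clock output genes (1.72), and Per3 (1.41) were higher, and Bhlhe40 (-0.86) was lower, as log2 fold changes in the authors' deposited table. The core activator Arntl was not called (-0.75, adjusted p = 0.0517, authors' deposited table). Of 21 genes of iron and copper handling, 6 were higher and 1 lower: the iron importer Tfrc (0.77) and plasma transferrin Trf (0.95) were higher, and Hmox1 was lower (-1.63, authors' deposited table). Of 21 genes of the glucocorticoid, insulin and glucagon response, 4 were higher, among them Tsc22d3 (0.94) and Dusp1 (0.87), and 1 was lower, Igfbp1 (-2.67, authors' deposited table). Of 35 transcription factors and nuclear receptors of hepatocytes, 8 were higher, among them Cebpa (0.59) and Nr2f2 (0.83), and 2 were lower, Pparg (-0.77) and Rxrb (-0.89, authors' deposited table). Called shares were 42.1% for the clock genes and 33.3% for iron and copper handling. They were 23.8% for the glucocorticoid, insulin and glucagon list and 28.6% for the transcription factors, against 28.8% over all genes. Of 12 hepatocyte markers, 3 were higher and 2 lower. Of 2 tested adipocyte markers 1 was lower, and of 2 tested exocrine pancreas markers 0 were called.

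One of the largest differences among higher genes was that of F830016B08Rik, with normalized counts of 1386, 1848, 428 and 1115 against a Cpt2 group mean of 29.4 (log2 fold change 5.34, adjusted p = 1.02e-22, authors' deposited table). Liver 3 was the lowest. Against the reference it stood at 3.19 in Cpt1a livers and at -2.17 in the Cpt2 group (authors' deposited table).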
